A study of Mus musculus with 12 samples.

Results

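The interferon-inducible GTPases followed here are 9 genes of the Mx, Irg and Gbp families, namely Mx1, Mx2, Iigp1, Igtp, Irgm1, Irgm2, Gbp2, Gbp3 and Gbp7. They were chosen by symbol from a count table of 17365 genes, and 9 of 9 were present and passed the expression filter. Bulk RNA-seq was carried out on adherent neural stem cell (NSC) cultures from the subventricular zone of mice aged 6 to 8 weeks, the stem cell niche along the lateral ventricle. The cultures were kept for 3 days in EGF with FGF2 (EGF/FGF, proliferating), in BMP4 alone (BMP, the dormant d-qNSCs) or in BMP4 with FGF2 (BMP/FGF, the primed p-qNSCs), each factor at 10 ng/ml. Each of the 3 conditions held 4 libraries, 2 of the ANS4 line from MF1 mice and 2 of the BL6 line from C57BL/6 mice. Each line is a culture of 1 strain, so line and strain cannot be told apart, and the reads of both were quantified against the mm10 transcriptome, which is that of C57BL/6.

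Interferons are secreted signals of infection that act through receptors coupled to Jak kinases. The signal then reaches DNA at an interferon-stimulated response element (ISRE), chiefly for type I interferon, or at a gamma-activated site (GAS), chiefly for interferon gamma. The GTPases are among the most strongly induced products of both routes. Mx proteins are dynamin-like and trap viral nucleocapsids. Irg proteins act on membranes around intracellular parasites and bacteria: Iigp1 is an effector of the GKS class, whereas Igtp, Irgm1 and Irgm2 are regulators of the GMS class that protect the cell's own membranes. Guanylate-binding proteins (Gbp) coat and disrupt pathogens and their vacuoles. C57BL/6 is among the laboratory strains with defective Mx1 alleles. In the adult subventricular zone, interferon signalling is known to influence whether stem cells rest or divide.

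In GENCODE vM21 (GRCm38, the mm10 assembly), 3 of the Gbp members are neighbours on chromosome 3: Gbp7 at chr3:142530342-142550149, Gbp3 at chr3:142560026-142573209 and Gbp2 at chr3:142620602-142638008, all on the plus strand. Igtp (chr11:58199556-58207591) and Irgm2 (chr11:58199618-58222782) overlap by 7974 bases on the plus strand, and Irgm1 lies at chr11:48861968-48871683 on the minus strand. Mx1 (chr16:97447035-97462907, minus) and Mx2 (chr16:97535308-97560900, plus) share a chromosome. Mx2 carries the biotype polymorphic pseudogene. Kallisto assigns reads by matching words of 31 bases, so the share of such words that a gene's transcripts have in common with other genes shows where the counts could be split. Gbp7 had 14.7% of its words in common with other genes (10.8% with the pseudogene Gm43802), Igtp 15.9% (with Irgm2) and Irgm2 10.7%. For the other members the share lay between 2.2% (Irgm1) and 8.12% (Mx1). The counts of Igtp, Irgm2 and Gbp7 are therefore the least certain in how reads were shared out.

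The phosphate-binding loop of the GTPase domain is shown for 8 of the 9 members because it distinguishes the GMS regulators from the Mx and Gbp members. Iigp1 is not shown. The 24 coding bases are given 5′ to 3′ from GENCODE vM21 transcripts, with the 7th codon of the loop in capitals.
Mx1 (exon 3, chr16:97457346-97457369, minus): ggggaccagagttctgggAAGagc
Mx2 (exon 3, chr16:97544591-97544614, plus): ggggaccagagttctgggAAGagc
Igtp (exon 3, chr11:58206275-58206298, plus): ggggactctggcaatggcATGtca
Irgm1 (exon 3, chr11:48866761-48866784, minus): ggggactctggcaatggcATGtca
Irgm2 (exon 3, chr11:58219695-58219718, plus): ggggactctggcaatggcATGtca
Gbp2 (exon 2, chr3:142623826-142623849, plus): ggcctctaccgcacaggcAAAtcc
Gbp3 (exon 2, chr3:142561878-142561901, plus): ggtttatatcgtacagggAAGtcc
Gbp7 (exon 2, chr3:142534655-142534678, plus): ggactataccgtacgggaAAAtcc
The 3 regulators carry a methionine codon at that place and the same 24 bases, whereas the Mx and Gbp members carry a lysine codon. Mx1 and Mx2 were also identical over the loop, whereas the bases of Gbp2, Gbp3 and Gbp7 differed from each other.

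Promoter windows from RefSeq (GRCm38.p6, 250 bases before to 50 after each gene's start) were listed for 6 of the 9 members. They are shown for the ISRE and GAS letters introduced above. Because the members were chosen as interferon-inducible genes, the share with such letters is a description and not a test. Letters of the ISRE core, that is GAAA, any 2 bases and GAAA, or on the other strand TTTC, any 2 bases and TTTC, were found in 6 of these 6 promoters, against 3.44% of the 32851 promoter windows in the table. The matches are printed in capitals with 7 bases on either side, on the strand of the gene.
Igtp (chr11:58199515-58199538, plus): aggaactGAAACTGAAAgctgttc
Irgm2 (chr11:58214906-58214929, plus): aggaactGAAACTGAAAgctgttc
Irgm1 (chr11:48871428-48871457, minus): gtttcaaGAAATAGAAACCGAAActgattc
Gbp2 (chr3:142620597-142620620, plus): cttttagTTTCACTTTCactgtct
Gbp3 (chr3:142559992-142560021, plus): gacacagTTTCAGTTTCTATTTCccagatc
Gbp7 (chr3:142530276-142530299, plus): tgtgcagTTTCAGTTTCagttctc
Igtp and Irgm2 were identical over this stretch, and Irgm1 and Gbp3 each held 2 overlapping matches. The centres of the matches lay 19 to 59 bases before the RefSeq start. The GENCODE bounds of Gbp2, Irgm1 and Irgm2 given above reach farther upstream, so the matches of these genes lie inside those bounds. A further window of Gbp3, from a later start, held no match. The GAS core TTCNNNGAA, which reads the same on both strands, was found in 8.30% of all windows and in 3 of the 6 members' promoters, namely Igtp, Irgm2 and Gbp7. No overlap between an ISRE and a GAS match occurred in these windows. The 110 bases before the RefSeq start of Gbp7 and of Igtp are given with both kinds of match in capitals.
Gbp7 (chr3:142530226-142530335, plus): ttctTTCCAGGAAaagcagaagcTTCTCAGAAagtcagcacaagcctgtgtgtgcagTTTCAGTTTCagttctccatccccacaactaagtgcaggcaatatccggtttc
Igtp (chr11:58199446-58199555, plus): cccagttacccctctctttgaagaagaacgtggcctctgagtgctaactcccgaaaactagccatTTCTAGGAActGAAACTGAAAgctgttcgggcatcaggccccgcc
A match of letters is a description of the sequence and does not show that a factor bound there.

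**Figure D1:**
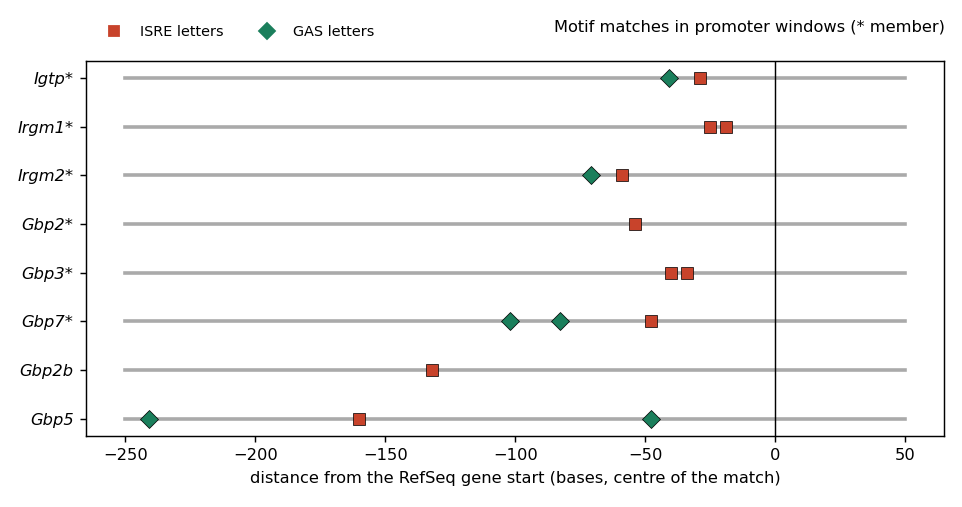
Centres of ISRE and GAS letter matches in the promoter windows (x axis: bases from the RefSeq gene start; grey lines: the windows) of the 6 members with a window and of Gbp2b and Gbp5. ISRE matches of the members lie 19 to 59 bases before the start, and GAS matches appear in Igtp, Irgm2 and Gbp7 among the members.

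Library totals were 18069052 to 19451818 counts, and 3 counts equalled 0.155 to 0.168 CPM, the unit used below, which scales a gene's counts to a common library size with TMM factors. Replicates of a line and condition differed by more than counting error in each of the 6 pairs. The squared deviation relative to counting error, averaged over genes, was 12.2 for BL6 in BMP and 2.12 to 4.68 in the other pairs. This measure cannot show whether 2 libraries came from separate cultures, and no library was treated as a repeat of another. Of 9 neural stem cell markers 9 were present, with summed levels of 8157 to 8844 CPM in EGF/FGF, 9583 to 10796 CPM in BMP and 11588 to 12147 CPM in BMP/FGF. Vim and Slc1a3 made up most of the rise from EGF/FGF to BMP. At that step 4 of the 9 fell (38.8% of all tested genes did), namely Fabp7 (log2 −2.39 ± 0.143), Nes (−2.17 ± 0.0775), Olig2 (−1.14 ± 0.12) and Egfr (−0.89 ± 0.0709). From BMP to BMP/FGF 3 of the 9 were higher and 0 lower, where 20.1% of all tested genes were higher. Mean Fabp7 rose from 475 to 1385 CPM (log2 1.58 ± 0.139) and Slc1a3 from 3056 to 3692 CPM, whereas Vim stood at 4685 and 4735 CPM. Microglia, the brain's macrophages, also express these GTPases. Of 12 microglial markers 6 were in the table. The defining genes Csf1r and Tmem119 reached at most 2 and 4 counts in any library, and Csf1r was at 0 in BMP. Of 6 endothelial markers 4 summed to 39.1 to 47.1 CPM, 5.58 to 9.29 CPM and 15.0 to 19.0 CPM in the same order, and 4 of 5 fibroblast and mural markers to 4.84 to 5.73 CPM, 4.82 to 5.98 CPM and 6.47 to 10.0 CPM. The endothelial sum rested on Flt1. Summed astrocyte markers (4 of 4) rose with the members, from 1019 to 1283 CPM in EGF/FGF through 2685 to 3282 CPM in BMP to 5005 to 5184 CPM in BMP/FGF. The part of these cell types in the results was not tested.

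Adding FGF2 to BMP4 raised the members as a group. Each of the 9 had more counts in BMP/FGF than BMP (FDR under 0.05, edgeR quasi-likelihood F-test with the line as a term, two-sided, Benjamini-Hochberg over 13312 tested genes), where 20.1% of all tested genes were higher. With a log2 fold change above 1.5 in addition, 5 of the 9 remained (Mx1, Mx2, Iigp1, Gbp3 and Gbp7) against 0.901% of all tested genes. The median log2 fold change of the members was 1.67 and that of all tested genes 0.00 to 2 decimals. Mx1 passed the expression filter only through BMP/FGF. Without it 8 of 8 members were higher, and 4 of these 8 passed 1.5. In bulk samples, more cells that express a gene and more RNA per cell cannot be told apart. Below, CPM values of a condition are given in the order ANS4 replicates 1 and 2, then BL6 replicates 1 and 2.

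Gbp7, of the guanylate-binding family, stood at 59.1, 58.2, 47.7 and 46.9 CPM in EGF/FGF, at 64.0, 61.7, 61.8 and 53.2 CPM in BMP, and at 229.9, 236, 218 and 209.8 CPM in BMP/FGF. The BMP libraries overlapped with those of EGF/FGF, and every BMP/FGF library stood far above both. From BMP to BMP/FGF it rose 3.72-fold, a log2 fold change of 1.89 ± 0.0632 (SE, n = 4 libraries per condition; FDR = 3.19e-12, edgeR), and its p-value was the lowest of all 13312 tested genes. Gbp3, its neighbour, was measured at 18.2, 19.2, 12.6 and 11.5 CPM in EGF/FGF, at 39.5, 34.9, 35.1 and 25.5 CPM in BMP, and at 111, 109, 99.7 and 107 CPM in BMP/FGF. The 3 conditions did not overlap. FGF2 added a 3.19-fold rise to Gbp3 (log2 1.67 ± 0.102, FDR = 2.06e-09). Gbp2 showed 29.6, 33.2, 13.4 and 13.2 CPM in EGF/FGF, 258, 232, 243 and 226 CPM in BMP, and 382, 378, 414 and 432 CPM in BMP/FGF. It was high in both quiescent states, and the BMP/FGF libraries were above those of BMP without overlap, but by 1.69-fold only (log2 0.75 ± 0.169, FDR = 0.00175).

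Among the Irg members, the effector Iigp1 (chromosome 18) was at 1.19, 0.982, 0.468 and 0.930 CPM in EGF/FGF (9 to 23 counts), at 4.53, 4.70, 2.18 and 2.19 CPM in BMP, and at 16.4, 18.7, 15.6 and 16.6 CPM in BMP/FGF. It climbed at both steps without overlap, and in BMP the BL6 libraries were the lower pair. The rise with FGF2 was 5.11-fold (log2 2.35 ± 0.162, FDR = 8.25e-09), larger than for the regulators by value, a difference that was not tested. Igtp, a regulator, was at 8.38, 8.42, 3.95 and 3.62 CPM in EGF/FGF, at 18.9, 21.0, 13.1 and 15.6 CPM in BMP, and at 39.9, 34.4, 37.4 and 37.9 CPM in BMP/FGF. It rose 2.22-fold with FGF2 (log2 1.15 ± 0.146, FDR = 8.71e-06). Irgm2, with which Igtp shares words, had 7.35, 8.42, 4.16 and 3.87 CPM, then 25.4, 23.4, 17.6 and 18.9 CPM, then 38.7, 37.6, 35.4 and 36.7 CPM in the same order of conditions. Its rise with FGF2 was 1.76-fold (log2 0.82 ± 0.115, FDR = 2.56e-05). Irgm1, a regulator that also takes part in autophagy, was the best expressed Irg member, at 32.3, 31.4, 19.3 and 19.4 CPM in EGF/FGF, 44.0, 44.9, 36.5 and 37.7 CPM in BMP, and 75.7, 77.6, 79.4 and 81.7 CPM in BMP/FGF. FGF2 raised it 1.95-fold (log2 0.96 ± 0.108, FDR = 2.11e-06). For each of these 4 genes the 3 conditions did not overlap.

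Mx2 was read at 5.43, 4.24, 1.66 and 1.34 CPM in EGF/FGF, at 5.80, 6.20, 4.87 and 3.54 CPM in BMP, and at 22.3, 22.1, 17.6 and 21.6 CPM in BMP/FGF. EGF/FGF and BMP overlapped, and BMP/FGF lay above both, with a 4.17-fold rise over BMP (log2 2.06 ± 0.194, FDR = 3.01e-07). Mx1 was scarce, at 0.569, 0.310, 0.364 and 0.155 CPM in EGF/FGF, 0.110, 0.221, 0.259 and 0 CPM in BMP, and 1.56, 0.916, 1.68 and 1.01 CPM in BMP/FGF. These levels stand for 3 to 11, 0 to 5 and 17 to 30 counts. Its rise from BMP to BMP/FGF was 8.41-fold (log2 3.07 ± 0.478, FDR = 6.96e-05), the largest of the members by value and the least precise, with a 95% interval of 2.07 to 4.08 on the log2 scale. In an exact permutation test over the 70 divisions of 8 libraries, which allows no p below 0.0286, each of the 9 members reached that smallest value between BMP and BMP/FGF (two-sided, on log2 of CPM with 0.1 added). Mx1 is among them although it passed the expression filter only through BMP/FGF.

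**Figure D2:**
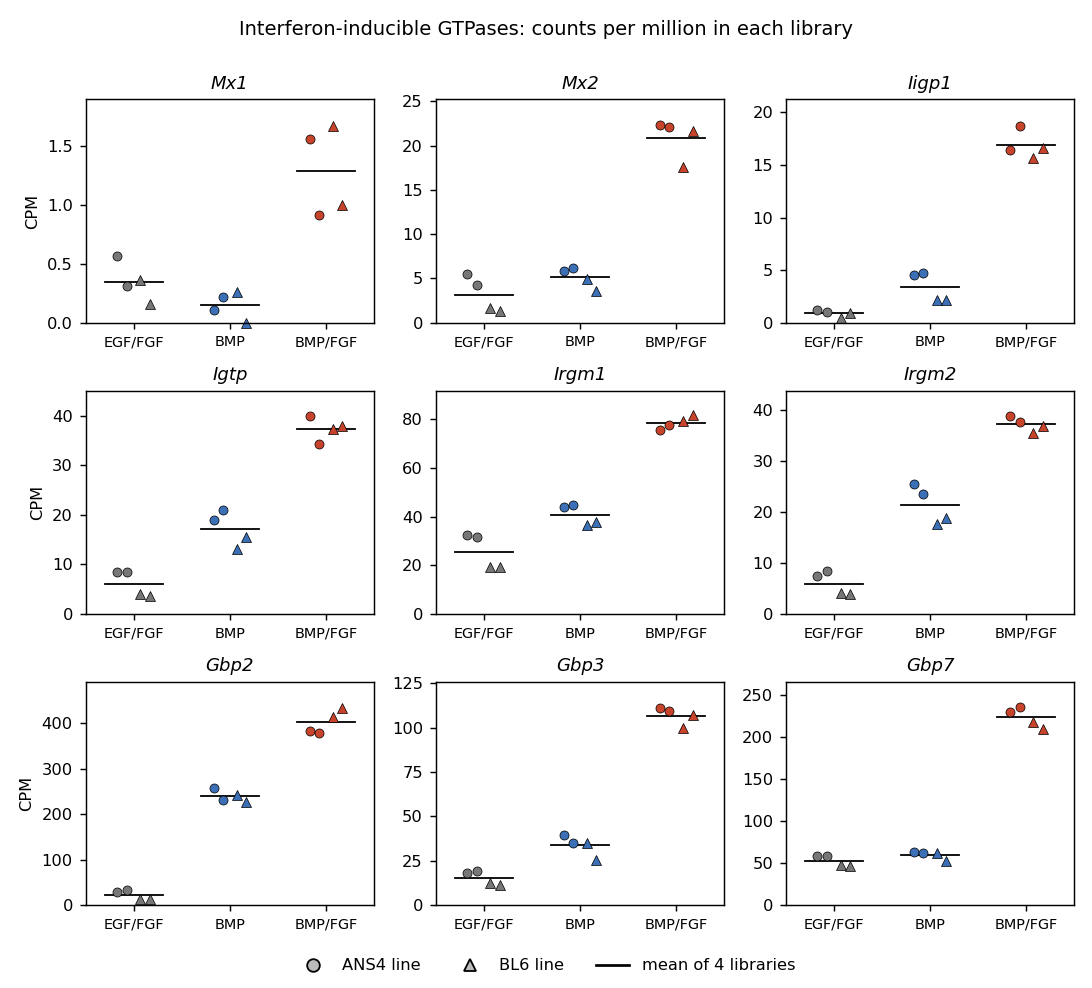
Level of each member in every library (y axis: CPM, linear from 0; x axis: condition; circles ANS4, triangles BL6; lines: mean of 4 libraries). BMP/FGF libraries are the highest for each of the 9 genes, Gbp7 lies at 46.9 to 64.0 CPM in both EGF/FGF and BMP, and Gbp2 has most of its rise at BMP.

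Levels of different genes were compared only per kilobase of the principal transcript, with the shortest and the longest such transcript. Overlap here means that the ranges over the 4 libraries of a condition, which pool both lines, overlapped. It does not show that the order of the genes changed within a library. In BMP/FGF the order was Gbp2 (159.6 CPM per kb), Gbp7 (39.8 to 89.6), Gbp3 (39.8 to 40.6), Irgm1 (34.8), Igtp (18.5), Irgm2 (10.7), Mx2 (8.65), Iigp1 (5.40 to 6.97) and Mx1 (0.381). With its longest transcript Gbp7 overlapped with Gbp3 over the 4 libraries, and with its shortest transcript Iigp1 overlapped with Mx2. The other neighbours in that order did not overlap. In EGF/FGF Gbp7 (9.44 to 21.2 CPM per kb), Irgm1 (11.3) and Gbp2 (8.88) led. Irgm1 and Gbp2 overlapped, and Gbp7 overlapped with both only when its longest transcript was used. Gbp3 (5.73 to 5.85), Igtp (3.01), Irgm2 (1.72), Mx2 (1.31), Iigp1 (0.286 to 0.369) and Mx1 (0.103) followed. Gbp2 overlapped with Gbp3, Igtp with Irgm2 and Irgm2 with Mx2, and Iigp1 overlapped with Mx1 when its longest transcript was used. In BMP Gbp2 was far ahead at 95.3 CPM per kb. Gbp7 (10.7 to 24.1), Irgm1 (18.0), Gbp3 (12.6 to 12.8), Igtp (8.49), Irgm2 (6.16), Mx2 (2.11), Iigp1 (1.09 to 1.40) and Mx1 (0.0436) came next. There Gbp3 overlapped with Igtp, Igtp with Irgm2 and Mx2 with Iigp1, and Gbp7 stood above Irgm1 with its shortest transcript and overlapped with Gbp3 and Igtp with its longest.

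The change from proliferation to BMP quiescence divided the members differently. Of 9 members 8 were higher in BMP than in EGF/FGF (40.8% of all tested genes were), and 4 of them passed 1.5, against 10.9% of all tested genes. By edgeR 0 were lower, also at an unadjusted p under 0.05 and with DESeq2, where 38.8% of all tested genes were lower by edgeR. Gbp2 rose 11.0-fold (log2 3.46 ± 0.195, FDR = 1.58e-11). Iigp1 rose 3.73-fold (log2 1.90 ± 0.239), Irgm2 3.62-fold (log2 1.86 ± 0.134) and Igtp 2.85-fold (log2 1.51 ± 0.169), and Gbp3 and Irgm1 followed at 1.14 ± 0.111 and 0.69 ± 0.113 on the log2 scale. Mx2 (log2 0.72 ± 0.234, FDR = 0.00907) and Gbp7 (0.19 ± 0.0637, FDR = 0.0118) passed the test with the line in the fit, but their libraries overlapped between the conditions. Without the line as a term neither passed (FDR = 0.0512 and 0.0571, edgeR), and in the ANS4 libraries alone neither passed (FDR = 0.0781 and 0.148, edgeR). Mx1 stood at a log2 of −1.21 ± 0.611 and did not pass (FDR = 0.0792). It was called lower without BL6 EGF/FGF replicate 2 (log2 −1.45) or without BL6 BMP replicate 1 (−1.67). By exact permutation, p was 0.114 for Mx1, 0.200 for Mx2 and 0.171 for Gbp7, and 0.0286 for the other 6 members.

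Set side by side, the steps differed in size from member to member. Gbp7 changed by 0.19 (95% interval 0.05 to 0.32) on the log2 scale from EGF/FGF to BMP and by 1.89 (1.76 to 2.03) when FGF2 was present with BMP4. Gbp2 changed by 3.46 (3.05 to 3.87) and then by 0.75 (0.40 to 1.11). Gbp3, which lies between them on chromosome 3, changed by 1.14 (0.91 to 1.38) and 1.67 (1.46 to 1.89). Irgm2 resembled Gbp2 in having its larger value at the BMP step (1.57 to 2.14 against 0.58 to 1.06), and Mx2 resembled Gbp7 (0.23 to 1.22 against 1.65 to 2.47). The intervals of Iigp1 (1.40 to 2.40 and 2.01 to 2.69), Igtp (1.16 to 1.87 and 0.84 to 1.46) and Irgm1 (0.45 to 0.92 and 0.73 to 1.19) overlapped between the steps. Mx1 stood at −1.21 (−2.49 to 0.08) and then at 3.07 (2.07 to 4.08). Both steps share the BMP libraries, and the difference between the steps was not tested. Against EGF/FGF, BMP/FGF raised 9 of 9 members (40.9% of all tested genes were higher), from 3.13-fold for Irgm1 to 18.6-fold for Gbp2 and 19.0-fold for Iigp1, with a median log2 fold change of 2.67. Without Mx1, 8 of 8 were higher. Mx1 rose by 1.87 ± 0.398 on the log2 scale, Gbp7 by 2.08 ± 0.0637, Igtp by 2.66 ± 0.164, Irgm2 by 2.67 ± 0.132, Mx2 by 2.78 ± 0.207 and Gbp3 by 2.82 ± 0.11.

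**Figure D3:**
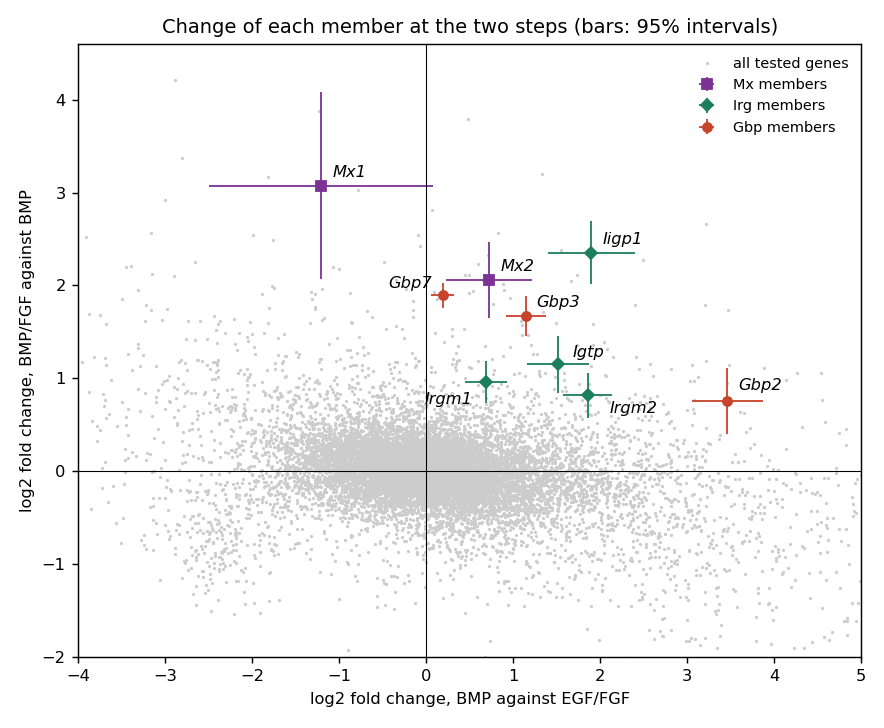
Log2 fold change of each member from EGF/FGF to BMP (x axis) and from BMP to BMP/FGF (y axis), with 95% intervals; grey points are all tested genes, of which 174 lie outside the axes. Gbp2 is far right at 3.46 and 0.75, Gbp7 high near the vertical axis at 0.19 and 1.89, and the 9 members all lie above 0 on the y axis.

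The other guanylate-binding genes covered a similar range of values. Gbp5 and Gbp2b, which lie beside Gbp7 and Gbp2 on chromosome 3, were higher at the BMP step by 4.27 ± 0.122 and 4.54 ± 0.264 on the log2 scale and at the FGF2 step by 1.06 ± 0.0848 and 1.06 ± 0.165. In the cluster on chromosome 5, Gbp4 and Gbp9 were not called at the BMP step (log2 −0.15 ± 0.081 and −0.13 ± 0.0828, FDR = 0.0936 and 0.166, edgeR) and rose with FGF2 by 1.84 ± 0.078 and 1.12 ± 0.0821. Gbp6, Gbp8, Gbp10 and Gbp11 rose by 2.58 to 3.13 at the BMP step and by 0.72 to 1.15 at the FGF2 step. Gbp6 and Gbp10 have 74.2% and 89.8% of their words of 31 bases in common with other genes, Gbp11 34.3%, Gbp8 31.1%, Gbp9 18.3% and Gbp4 14.3%, so the counts of these genes are uncertain, those of Gbp6 and Gbp10 most of all. Gbp7, at 0.19 on the log2 scale for the BMP step, lies 7997 bases from Gbp5 (4.27) and 9876 bases from Gbp3 (1.14), and these differences between genes were not tested. The promoter windows of Gbp2b and Gbp5 held ISRE letters too, centred 132 and 160 bases before the RefSeq start.
Gbp2b (chr3:142594703-142594726, plus): cttctaaTTTCACTTTCttcttta
Gbp5 (chr3:142496762-142496785, plus): tgtgtagTTTCAATTTCagtttag

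**Figure D4:**
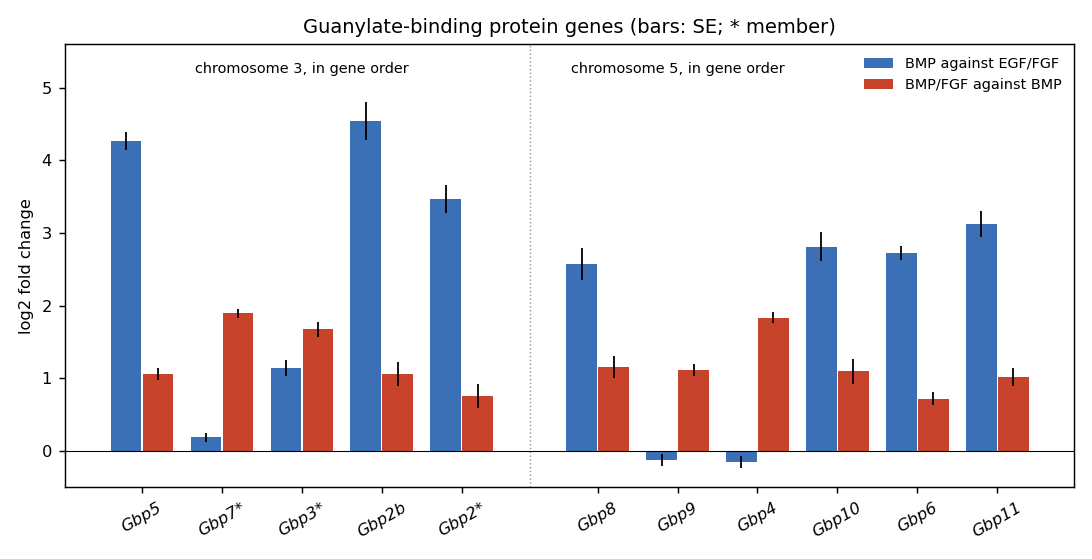
Log2 fold change of the 11 Gbp genes at the BMP step (blue) and the FGF2 step (red), in gene order along chromosomes 3 and 5 (bars: fitted values with SE; asterisks: members). At the BMP step Gbp4, Gbp9 and Gbp7 lie between −0.15 and 0.19, and the other 8 genes between 1.14 (Gbp3) and 4.54 (Gbp2b).

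Of 19 further interferon-inducible GTPases and Irg relatives listed, 17 were in the table and 12 were tested. Between BMP and BMP/FGF 11 were higher (20.1% of all tested genes were) and 1 was lower, with a median log2 fold change of 1.11. Past 1.5 were Gm4951 (2.27 ± 0.184), F830016B08Rik (2.05 ± 0.307), Gbp4 (1.84 ± 0.078) and Ifi47 (1.72 ± 0.298), 3 of which are Irg relatives. Of all tested genes 0.901% were higher past 1.5. F830016B08Rik, with at most 27 counts in a library, passed the expression filter only through BMP/FGF, and without it 10 of 11 were higher and 3 passed 1.5. The lower gene was Irgq (−0.48 ± 0.0688), a distant Irg relative. At the BMP step 9 were higher and 3 were not called (Gbp4, Gbp9 and F830016B08Rik, the last at 0.65 ± 0.438), and from EGF/FGF to BMP/FGF 12 of 12 were higher. Of all tested genes 40.8% were higher at the BMP step and 40.9% from EGF/FGF to BMP/FGF. Tgtp1 and Tgtp2, Irg genes that are near copies of each other, were not tested and reached at most 28 and 21 counts in a library.

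The constitutive dynamin family, large GTPases of membrane fission and fusion that interferon is not known to induce, belong to the same superfamily as the Mx proteins. Between BMP and BMP/FGF 2 of 10 were higher, as were 20.1% of all tested genes, 2 were lower and 6 were not called, with a median log2 fold change of −0.01. The extremes were Dnm1 (0.34 ± 0.133, FDR = 0.0505, edgeR) and Dnm3 (−0.49 ± 0.167, FDR = 0.0263). At the BMP step 5 of 10 were higher, 3 lower and 2 not called, and 2 passed 1.5, Atl1 (1.81 ± 0.129) and Dnm3 (1.65 ± 0.183). Of all tested genes 40.8% were higher and 38.8% lower at that step, and 10.9% were higher past 1.5. Genes of the ubiquitin-like conjugation system that places Irg and Gbp proteins on membranes moved little at the FGF2 step. There 3 of 10 were higher, near the 20.1% of all tested genes, and the other 7 were not called. Values ran from Map1lc3b (−0.13 ± 0.0786, FDR = 0.193, edgeR) to Atg3 (0.30 ± 0.0857, FDR = 0.0102). At the BMP step 7 of these 10 were higher and 3 lower, where 40.8% and 38.8% of all tested genes were.

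Of 19 listed genes for interferon receptors, kinases and factors, 19 were tested. With FGF2 added 9 were higher (20.1% of all tested genes were), 1 was lower and 9 were not called. The median was 0.15 on the log2 scale. Past 1.5 were Usp18 (2.56 ± 0.198), a feedback protease for Isg15, and Irf7 (1.94 ± 0.196), a factor that itself responds to type I interferon, and the lowest was Socs3 (−0.33 ± 0.124, FDR = 0.0437, edgeR). Of 9 interferon ligand genes 1 was in the table, Ifnk, with at most 1 count in a library, and the other 8 were not analysed here.

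Over the 12 libraries, the genes whose centred log2 CPM profile lay nearest to the mean profile of the members included Myzap, Bst2, Xaf1, Herc6, Ptx3, Cxcl10 and H2-Q4, among 12458 candidates with a mean of at least 1 CPM. Their root mean square difference was 0.172 (Myzap) to 0.287 (H2-Q4) on the log2 scale, against a median of 1.20 over the candidates. Bst2 tethers budding virus, Cxcl10 attracts T cells and H2-Q4 is a class Ib histocompatibility gene. Among the members themselves, Gbp3 was nearest to the mean profile (0.114), and Gbp2 (0.987) and Mx1 (0.963) were farthest. The profiles follow the 3 conditions that all libraries share.

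The lines differed in the members while they proliferated. In EGF/FGF 7 of 9 members were lower in BL6 than in ANS4 (edgeR, 1 mean for each line and condition), where 3.84% of all tested genes were lower. Gbp2 was measured at a mean of 31.4 CPM in ANS4 and 13.3 CPM in BL6 (log2 −1.24 ± 0.0929, FDR = 4.38e-07), and Mx2 at 4.83 and 1.5 CPM (−1.68 ± 0.232, FDR = 0.000314). Igtp (−1.15 ± 0.153), Irgm2 (−0.97 ± 0.136), Irgm1 (−0.72 ± 0.0774), Gbp3 (−0.63 ± 0.135) and Gbp7 (−0.31 ± 0.0746) were lower too. Leaving out single libraries took away the calls of Gbp7 (without any of the 4 EGF/FGF libraries, FDR 0.0927 to 0.122, edgeR) and of Gbp3 (without ANS4 replicate 2 or either BL6 replicate). Mx1 (log2 −0.75 ± 0.734) and Iigp1 (−0.63 ± 0.336) did not pass. The median over the 9 members was −0.75 and over all tested genes 0.00 to 2 decimals.

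In BMP 4 of 9 members were lower in BL6 (Iigp1, Igtp, Irgm1 and Irgm2), where 10.8% of all tested genes were. Iigp1 had the largest difference, with means of 4.61 CPM in ANS4 and 2.18 CPM in BL6 (log2 −1.08 ± 0.197, FDR = 0.000855, edgeR), and the other 3 lay between −0.48 and −0.26. Without BL6 BMP replicate 1 the count was 7, and without either ANS4 BMP replicate it was 2. In BMP/FGF 0 of 9 members differed between the lines by edgeR, where 0.736% of all tested genes did. By an unadjusted p under 0.05 the count was 1 (Gbp2, log2 0.16 ± 0.0676, 95% interval 0.01 to 0.30, BL6 minus ANS4) and by DESeq2 0, with 5 adjusted p-values not available. The 95% intervals of the other members but Mx1 reached no farther than −0.44 and 0.22 on the log2 scale. For Mx1 the interval ran from −0.79 to 1.02.

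**Figure D5:**
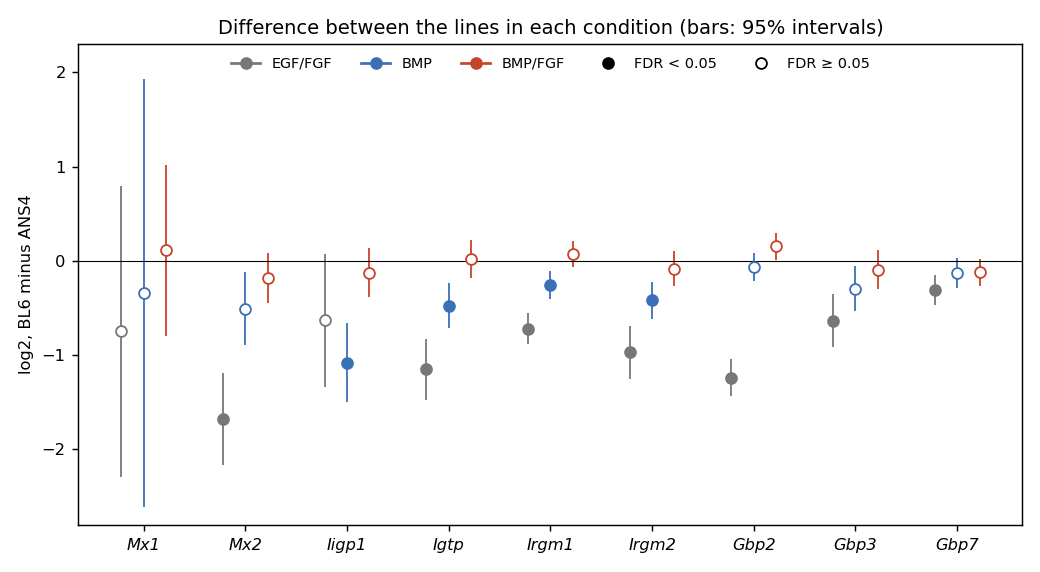
Difference between the lines for each member in each condition (y axis: log2, BL6 minus ANS4; points: fitted values with 95% intervals; filled: FDR under 0.05). In EGF/FGF (grey) 7 points are filled and below 0, in BMP (blue) 4 are, and in BMP/FGF (red) 0 are.

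The steps of each line (2 libraries per condition) were compared by testing the difference of differences. From EGF/FGF to BMP, 5 of 9 members changed by unequal amounts (9.02% of all tested genes did in either direction), each with the larger rise in BL6. Gbp2 rose by 2.96 ± 0.0785 on the log2 scale in ANS4 and by 4.14 ± 0.0868 in BL6, a difference of 1.18 ± 0.116 (FDR = 1.26e-05, edgeR). For Mx2 the difference was 1.17 ± 0.302, with 0.31 ± 0.179 in ANS4 and 1.48 ± 0.238 in BL6, and Igtp (0.67 ± 0.191), Irgm2 (0.55 ± 0.166) and Irgm1 (0.46 ± 0.105) had smaller ones. Gbp2 passed in each alternative run for it. With DESeq2 3 members passed, and with only the 8 libraries compared 1 did. The count was 2 without ANS4 EGF/FGF replicate 1, either BL6 EGF/FGF replicate or ANS4 BMP replicate 1, and 3 without ANS4 EGF/FGF replicate 2 or either BL6 BMP/FGF replicate. From BMP to BMP/FGF 3 of 9 changed by unequal amounts, against 13.5% of all tested genes. These were Iigp1 (1.93 ± 0.144 in ANS4, 2.88 ± 0.164 in BL6, difference 0.95 ± 0.233), Igtp (0.49 ± 0.148) and Irgm1 (0.33 ± 0.0967). With DESeq2 1 passed, without BL6 BMP/FGF replicate 2 the count was 0, and without ANS4 BMP replicate 2, either ANS4 BMP/FGF replicate or BL6 BMP/FGF replicate 1 it was 1. Gbp7 rose by 1.89 ± 0.0712 in ANS4 and by 1.90 ± 0.0715 in BL6, a difference of 0.01 with a 95% interval of −0.20 to 0.21.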

How the data were processed

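Low input RNA-seq was run on the BGISEQ-500RS. For these files the authors trimmed reads with Trim Galore 0.5.0, quantified them with kallisto 0.44.0 on the mm10 transcriptome, summed them per gene with tximport and deposited whole-number counts. They also deposited log2 values from the rlog of DESeq2 1.27.32, used here only as an alternative. All per-sample columns were used.

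Counts were filtered with filterByExpr by condition (13312 of 17365 genes kept), scaled by TMM and tested with edgeR 4.0.16 in R 4.3.3 (glmQLFit, glmQLFTest). All 12 libraries were fitted with condition and line as terms, or with 6 means for line comparisons. FDR under 0.05 was called, and past the threshold means an absolute log2 fold change above 1.5. Standard errors and 95% intervals were computed from the F statistic. CPM are counts-per-million of the library total times its TMM factor, and log2 CPM used a prior count of 2. Alternatives used DESeq2 1.42.0 and limma 3.58.1. The scripts were tested on simulated data. The labels number the replicates, 2 per line and condition, and the authors call them biological. The p-values measure the spread between these libraries. Each of the 9 members is named with its level in every library. In related lists, genes past 1.5 between BMP and BMP/FGF, the extremes and, where 3 or fewer were not called, those are named, as are genes among the 8 nearest in profile. Some values are not reported here. The members, lists and thresholds were chosen with earlier results of these data known. Further Gbp genes, marker genes and dynamin relatives at the BMP step were named after their values were seen, as was the choice of the coding bases of the loop. Matplotlib 3.10.9 and Python 3.11.15 were used for figures and sequences.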

Additional observations from a re-analysis of the deposited data

Results flagged for a closer look

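In a group of 4 BMP/FGF libraries, Mx2 stood at 17.6 CPM in BL6 replicate 1, apart from 21.6 to 22.3 CPM in the other 3. This was 1 of 27 groups examined, and chance sets apart about 1 in 20.

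The lines changed by unequal amounts in the tested difference of differences (BL6 minus ANS4, log2, edgeR). From BMP to BMP/FGF the values were 0.95 for Iigp1, 0.49 for Igtp and 0.33 for Irgm1. From EGF/FGF to BMP they were 1.17 for Mx2, 0.67 for Igtp, 0.46 for Irgm1, 0.55 for Irgm2 and 1.18 for Gbp2. With only the 8 libraries compared, Iigp1 kept its call from BMP to BMP/FGF, and Igtp (FDR = 0.0605, edgeR) and Irgm1 (0.0510) did not. In the same setting Gbp2 kept its call from EGF/FGF to BMP. Mx2 (FDR = 0.0519, edgeR), Irgm1 (0.0559), Igtp (0.0748) and Irgm2 (0.112) did not. Line, strain and distance from the reference transcriptome cannot be told apart in these libraries.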

How the results depend on the processing

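Over 72 log2 results of the members and 1395 alternatives, 1297 kept direction and call, 70 lost the call, 9 gained it and 19 changed sign. From BMP to BMP/FGF and from EGF/FGF to BMP/FGF, 9 of 9 members were higher under each alternative run. The cause of the changes below was not tested. Members lower in BMP than in EGF/FGF numbered 0 to 1 when single libraries were left out. Members with a line difference between BMP and BMP/FGF (3) numbered 1 scaled by library size only, 1 by DESeq2 and 1 with only the 8 libraries compared, and 0 to 4 without single libraries. Those between EGF/FGF and BMP (5) numbered 3 by DESeq2, 3 with no filter and 1 with only the 8 libraries, and 2 to 4 without single libraries. Members differing between the lines numbered 1 in BMP and 1 in BMP/FGF when only the 4 libraries of that condition were used (Gbp2, log2 0.15, in BMP/FGF), and 2 to 7 in BMP without single libraries.

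Uncalled line differences near 0 changed sign. By library size only, that of Igtp in BMP/FGF was −0.0093 and that of the FGF2 step of Gbp7 −0.0698 on the log2 scale. Without single libraries, Mx1 ranged from −0.511 to 4.80 for the FGF2 step and −3.94 to 1.37 for the BMP step. Within BMP its line difference ranged from −4.69 to 0.624, and within BMP/FGF from −0.301 to 0.541. The BMP step of Iigp1 ranged from −0.855 to 0.124, Igtp in BMP/FGF from −0.0845 to 0.126, Gbp2 in BMP from −0.140 to 0.0196, and the FGF2 step from −0.0144 to 0.449 for Gbp3 and −0.0990 to 0.119 for Gbp7.

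Replicate numbers are not stated to pair the samples. Deviations of libraries with the same number correlated at −0.179 to 0.306 over 9967 genes, the highest between BMP and EGF/FGF in ANS4. Correlations of mixed sign cannot exclude that some cultures were handled together. With the replicate number as a block, 9 members were higher from BMP to BMP/FGF, 8 from EGF/FGF to BMP and 9 from EGF/FGF to BMP/FGF, and 4 in place of 5 had a line difference at the BMP step (Irgm2, 0.55, FDR = 0.0680, edgeR). With the ANS4 BMP/FGF numbers exchanged, chosen after seeing the data, the first counts were also 9, 8 and 9. At 3 counts as a floor, Mx1 in BMP (0 to 5 counts) was the value that depth limited most.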
